A study of Mus musculus with 20 samples.

Results

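The collagen chain genes are the genes that encode the alpha chains of the collagens. They were taken as all genes whose name on the array consisted of Col, a number, the letter a and a number, as in Col1a1, and nothing more. That rule found 43 genes with 68 probes, of 34797 named genes and 55681 probes on the array. Each gene was represented by 1 probe, the one with the highest mean log2 signal over the 20 arrays. The 43 genes were 11 fibrillar chains, 6 basement membrane chains of type IV and 26 other chains. The RNA came from frozen diaphragm tissue of female C57Bl/6 mice that had received 1 injection of 100 µl into the pleural cavity at an age of 8 weeks and were killed 12 weeks later. There were 5 groups of 4 mice. The vehicle control (VC) received 0.5% bovine serum albumin in saline without fibers. Long fiber amosite (LFA) and short fiber amosite (SFA), both from a single South African asbestos batch with SFA made by ball milling, were given at 25 µg. Long (LNT) and short (SNT) carbon nanotubes, named NTL and NTS in the sample labels, were given at 5 µg, so the doses of asbestos and nanotubes differ and each fiber type was 1 preparation.

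Collagens are triple helices of 3 chains in which glycine recurs at every turn of 3 residues. Fibrillar collagens assemble into the banded fibers that give tissue its tensile strength and that accumulate in fibrosis. Type IV collagen forms the sheet-like network of basement membranes, which surround muscle fibers, capillaries and the mesothelium. Type VI collagen forms beaded filaments around muscle fibers and fibroblasts, and the FACIT collagens attach to the surface of fibrils. The diaphragm is a sheet of skeletal muscle with a connective tissue layer and a mesothelium on its pleural face, and fibroblasts are the main source of fibrillar collagen in such tissue.

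Signals are given as log2 scanner intensities after division by a scale value, the 75th percentile of each array, which ranged from 292 to 991 intensity units over the 20 arrays. Between 53% and 68.1% of the spots of an array were well above background. Of the 43 genes, 40 passed the filter of a signal well above background on at least 4 arrays and were tested. Col9a3, Col13a1 and Col28a1 were well above background on 1, 1 and 3 arrays and were not tested. All 7 skeletal muscle markers were tested, and their mean log2 signal ranged from 7.10 to 9.05 over the arrays. Transcripts of the liver varied between single arrays, with a mean log2 signal of 5 liver markers from -3.53 in SFA mouse 4 to 8.72 in SNT mouse 3. SNT 3 and 4, LFA 1 and 3 and SFA 2 had the 5 highest values. Of the 4 lung markers, 3 were not above background on enough arrays to be tested. A 5' to 3' index was the mean log2 signal of the probe nearest the 5' end minus that nearest the 3' end. It covered 1151 transcripts with such probes at least 1000 bases apart. The index ranged from -1.39 in SFA 1 to -0.36 in SNT 3, and LFA 3, LNT 2, SNT 4 and VC 2 had the next lowest values. Signals of different genes come from different probes and are compared only between arrays.

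The repeat that defines these chains can be read in the probe of Col15a1, a chain that carries an endostatin-like fragment. Its 60 bases (mm9, chr4:47283786-47283845) are shown with the glycine codons in capitals, 6 codons that each stand 9 bases after the one before.
Col15a1 probe: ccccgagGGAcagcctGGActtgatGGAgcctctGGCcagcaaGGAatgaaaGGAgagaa
Promoters are shown for 4 of the fibrillar genes called higher in LNT against VC, taken from the RefSeq promoter table (GRCm38.p6). Of the 43 genes, 35 matched this table, with 38 promoters. The 250 bases before the start that the table gives are printed 5' to 3' on the gene's strand, which is the plus strand for all 4, with capitals for matches on either strand to the CCAAT box (searched as CCAAT), the TATA box (searched as TATAAA) and the GC box (searched as GGGCGG).
Col1a2, chr6:4505368-4505617: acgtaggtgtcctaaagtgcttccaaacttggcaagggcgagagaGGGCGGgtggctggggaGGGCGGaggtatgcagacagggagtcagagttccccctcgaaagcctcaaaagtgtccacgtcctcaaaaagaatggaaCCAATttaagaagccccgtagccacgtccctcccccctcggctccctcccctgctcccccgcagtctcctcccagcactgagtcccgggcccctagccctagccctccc
Col3a1, chr1:45311288-45311537: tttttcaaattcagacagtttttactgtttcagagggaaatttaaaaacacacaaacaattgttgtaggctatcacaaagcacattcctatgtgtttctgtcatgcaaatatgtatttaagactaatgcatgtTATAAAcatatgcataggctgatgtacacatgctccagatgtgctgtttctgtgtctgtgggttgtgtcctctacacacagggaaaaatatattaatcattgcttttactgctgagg
Col5a1, chr2:27886175-27886424: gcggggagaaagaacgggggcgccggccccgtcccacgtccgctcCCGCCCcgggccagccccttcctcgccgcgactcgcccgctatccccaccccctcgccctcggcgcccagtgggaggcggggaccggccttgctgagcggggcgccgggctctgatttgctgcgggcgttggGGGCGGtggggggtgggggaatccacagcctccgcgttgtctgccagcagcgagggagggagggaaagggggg
Col24a1, chr3:145292222-145292471: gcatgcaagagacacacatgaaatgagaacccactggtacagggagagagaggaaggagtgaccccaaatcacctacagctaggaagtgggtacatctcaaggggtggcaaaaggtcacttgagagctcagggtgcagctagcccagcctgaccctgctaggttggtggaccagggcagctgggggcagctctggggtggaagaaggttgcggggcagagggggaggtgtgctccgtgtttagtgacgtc
The Col1a2 window held GGGCGG at positions -205 and -188 and CCAAT at -109 relative to the start. The Col3a1 window held TATAAA at -117 and the Col5a1 window held the GC box at -205, on the other strand, and at -73. The Col24a1 window held none of these letters. CCAAT or its reverse complement stood in 33.8% of all 32851 promoters and in 13 of the 38 collagen promoters, TATAAA in 12.4% and 5, and GGGCGG in 32.7% and 22. The windows differ in base composition, with 35.2% G and C in Col3a1 and 76.4% in Col5a1, and a match is a description of letters only.

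Of the 11 fibrillar collagen genes, 6 were higher in the diaphragms of mice given long nanotubes and 3 in those given long asbestos. Of the 6 basement membrane genes, none was called higher and 1 was lower in each. The groups are unevenly spread over the 3 slides of the array, and with the slide as a fixed block 3 of the fibrillar calls were left in LNT (Col3a1, Col5a2 and Col24a1) and 2 in LFA (Col5a2 and Col24a1). A gene was called changed when its log2 change was at least 1 in either direction with a Benjamini-Hochberg adjusted p under 0.05 over all 36931 tested probes, in 1 limma fit of the 5 groups. In LNT against VC, 9 of the 40 genes were called, 7 higher and 2 lower, where 6.8% of all tested probes were called, 3.64% higher and 3.17% lower. In LFA against VC, 5 were called, 3 higher and 2 lower, where 3.96% of all tested probes were called, 2.21% higher and 1.75% lower. In SFA against VC and in SNT against VC, limma called 0 of the 40 genes and 0% of all tested probes. At an unadjusted p under 0.05, 2 genes passed in SFA and 3 in SNT, where 849 and 1299 of all 36931 tested probes passed. The 4 comparisons share the VC mice, so their values are given side by side. In bulk tissue, a higher signal from more cells of a type and from more RNA per cell cannot be told apart.

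The 6 fibrillar genes called higher in LNT were Col1a1, Col1a2, Col3a1, Col5a1, Col5a2 and Col24a1, and 3 of them, Col3a1, Col5a2 and Col24a1, were called in LFA too. The remaining gene called higher in LNT was Col6a5. Col4a4 and Col19a1 were called lower in both. The median log2 change over the 11 fibrillar genes was 1.30 in LNT and 0.87 in LFA, beside a median over all tested probes of -0.25 and -0.28. For the 6 basement membrane genes it was -0.19 in LNT and -0.40 in LFA, and for the 23 other genes 0.32 and -0.06. In the short fiber groups the fibrillar medians were 0.39 in SFA and 0.13 in SNT. The basement membrane medians were 0.10 and -0.23 and those of the other genes -0.14 and -0.35, beside -0.11 and -0.06 for all tested probes. With Col15a1, Col18a1 and Col7a1, whose products also lie in basement membrane zones, counted with type IV, the LNT and LFA medians of that class were -0.11 and -0.25.

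**Figure D1:**
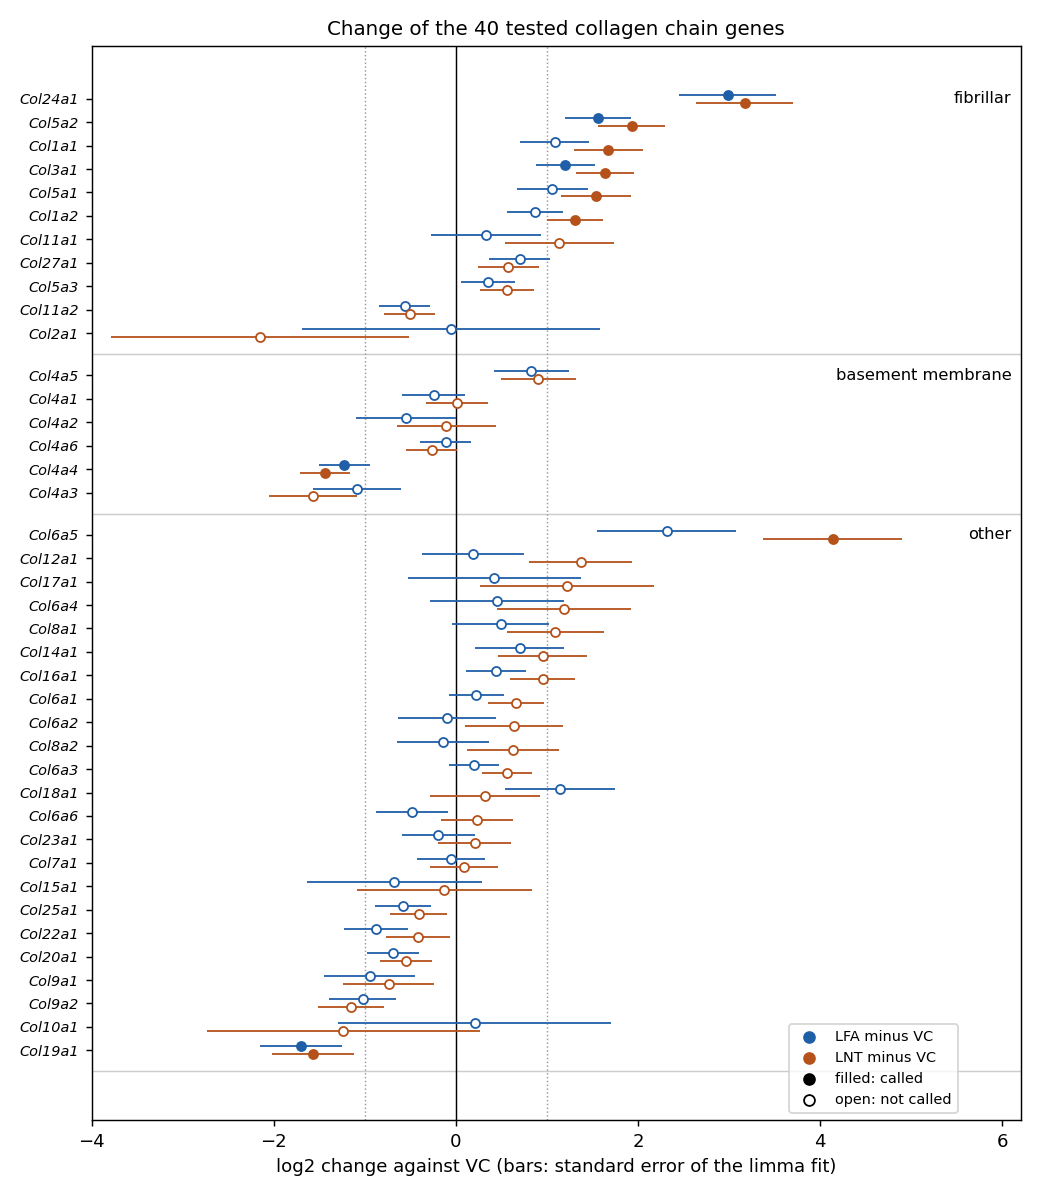
Log2 change against VC (horizontal axis, with the standard error of the limma fit as bars) of the 40 tested collagen chain genes, grouped by class, for LFA in blue and LNT in brown. Filled points were called and open points were not. Most fibrillar genes lie to the right of 0, from -2.15 to 3.17 in LNT, and Col6a5 has the highest value of all, 4.14 in LNT.

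On single mice the fibrillar class separated LNT from VC. The median of the 11 genes, each relative to its mean in VC, was -0.17, -0.25, 0.19 and 0.46 in VC and 1.57, 1.70, 0.76 and 1.36 in LNT. In LFA it was 0.33, 1.72, 0.52 and 1.09, so that LFA 1 lay within the VC range and LFA 2 lay beside the highest LNT mouse. In SFA it was 1.04, 0.27, 0.36 and 0.16, and in SNT 0.30, 0.06, -0.16 and 0.05. SFA 1 was the only short fiber mouse above the VC range. The median over all tested probes lay between -0.38 and 0.19 on every array and was lower in every LFA and LNT mouse than in every VC mouse.

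**Figure D2:**
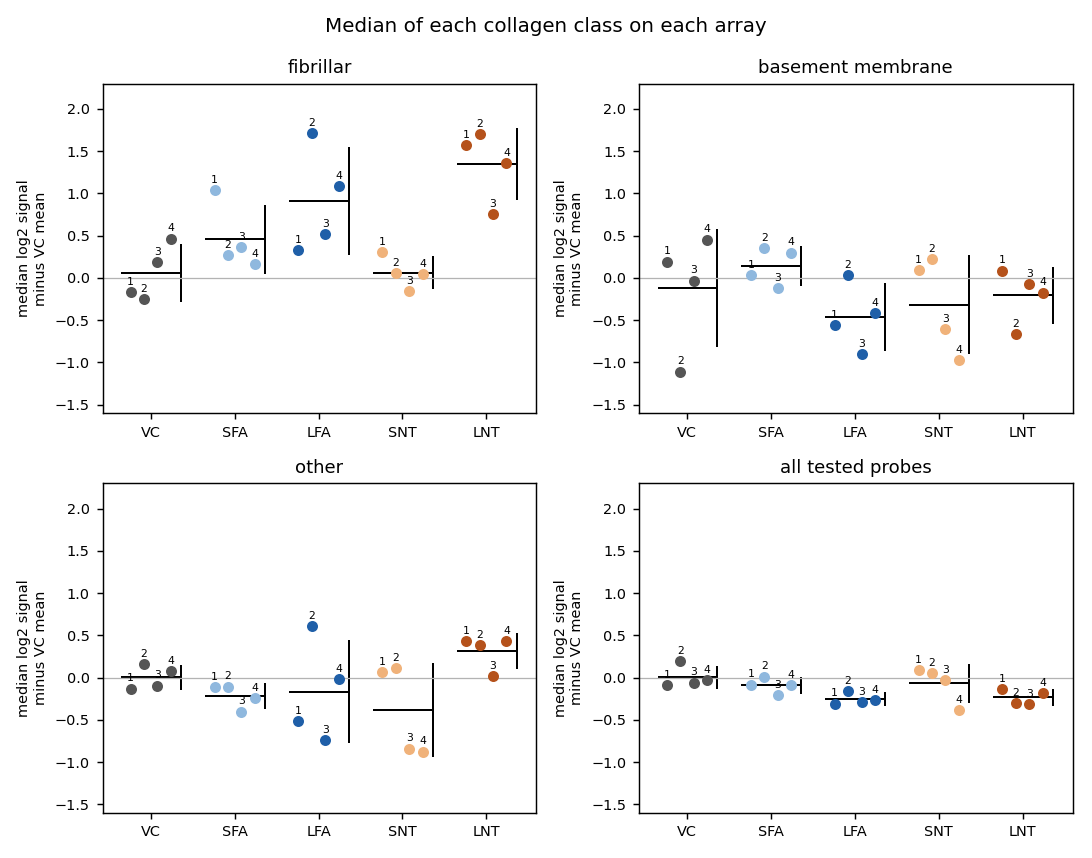
Median log2 signal relative to the VC mean (vertical axes) for the fibrillar, basement membrane and other collagen genes and for all tested probes, with 1 point per mouse numbered within its group, the group mean as a horizontal line and the SD as a vertical line. The 4 LNT mice lie above the 4 VC mice for fibrillar genes, from 0.76 to 1.70. For basement membrane and other genes the LNT and VC mice overlap, and over all tested probes the LFA and LNT mice lie below the VC mice.

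Type I collagen, built from Col1a1 and Col1a2, is the main protein of scar and tendon. The Col1a1 signal was 4.56, 4.69, 5.36 and 4.82 in VC, 5.90, 5.25, 5.05 and 4.82 in SFA, 5.15, 7.04, 5.55 and 6.04 in LFA, 5.07, 4.79, 3.94 and 4.77 in SNT, and 6.5, 7.10, 5.99 and 6.55 in LNT. All 4 LNT mice were above all VC, SFA and SNT mice, while LFA 1 overlapped VC. The log2 change was 1.67 ± 0.38 in LNT (standard error, n = 4 per group, limma adjusted p = 0.0115), a 3.19-fold higher signal, and 1.09 ± 0.38 in LFA (adjusted p = 0.0988), which was not called. The Col1a2 signal was 6.55, 6.47, 6.91 and 6.96 in VC, 7.28, 7.07, 6.66 and 6.73 in SFA, 7.05, 8.44, 7.15 and 7.72 in LFA, 7.06, 6.78, 6.13 and 6.33 in SNT, and 8.30, 8.25, 7.48 and 8.08 in LNT. Both long fiber groups were above VC without overlap, and LFA 1 and LFA 3 lay below SFA 1. The change was 1.30 ± 0.31 in LNT (limma adjusted p = 0.0153) and 0.87 ± 0.31 in LFA (0.105 by the same test). With the slide as a block, both LNT calls were lost, at adjusted p-values of 0.0557 for Col1a1 and 0.0571 for Col1a2. The Col1a2 call in LNT was lost in 1 of 20 fits that left out 1 mouse (without LNT 1), with an adjusted p of up to 0.0524.

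Type III collagen, encoded by Col3a1, forms fine fibers early in scar formation. Its probe (mm9, chr1:45405589-45405648) lies close to that of Col5a2 (chr1:45431204-45431263) on chromosome 1. The Col3a1 signal was 6.33, 5.72, 5.49 and 5.94 in VC, 6.95, 6.13, 6.45 and 6.02 in SFA, 6.41, 7.62, 6.77 and 7.48 in LFA, 5.63, 5.76, 4.95 and 5.95 in SNT, and 7.56, 7.93, 7.03 and 7.51 in LNT. LFA and LNT were above VC without overlap, and LNT was above SFA as well. It rose by 1.64 ± 0.32 in LNT (limma adjusted p = 0.00449), 3.12-fold, and by 1.20 ± 0.32 in LFA (adjusted p = 0.0408), 2.3-fold. The LFA call was lost with the slide as a block (adjusted p = 0.0708). The Col3a1 call in LFA was lost in 9 of 20 fits that left out 1 mouse (without VC 1, VC 2, VC 3, VC 4, SFA 3, LFA 2, LFA 4, LNT 1 or LNT 4), with an adjusted p of up to 0.113.

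Type V collagen, of which Col5a1 and Col5a2 encode the main chains, starts fibrils and limits their width. The Col5a2 signal was -1.48, -1.26, -1.33 and -1.53 in VC, 0.27, -0.40, -0.31 and -1.12 in SFA, -0.25, 0.96, -0.44 and 0.36 in LFA, -0.63, -1.42, -1.68 and -1.36 in SNT, and 0.63, 1.16, -0.32 and 0.63 in LNT. The 4 VC mice lay within a narrow range, below every SFA, LFA and LNT mouse, while SNT overlapped VC. Col5a2 rose by 1.93 ± 0.36 in LNT (limma adjusted p = 0.0036) and 1.56 ± 0.36 in LFA (0.0242), and its change of 1.01 ± 0.36 in SFA was not called (0.998). The Col5a1 signal was 1.97, 0.91, 1.91 and 2.0 in VC, 2.25, 1.76, 2.32 and 1.88 in SFA, 2.08, 3.93, 1.88 and 3.15 in LFA, 1.67, 1.56, 1.21 and 1.39 in SNT, and 3.32, 3.51, 2.57 and 3.54 in LNT. LNT was above VC and SNT, and LFA 1 and 3 lay near the VC values. The change was 1.54 ± 0.39 in LNT (limma adjusted p = 0.0211) and 1.06 ± 0.39 in LFA (0.112, not called). The Col5a2 call in LFA was lost in 4 of 20 fits that left out 1 mouse (without VC 1, VC 4, LFA 2 or LFA 4), with an adjusted p of up to 0.0834. The Col5a1 call in LNT was lost with the slide as a block (adjusted p = 0.0892). The Col5a1 call in LNT was lost in 4 of 20 fits that left out 1 mouse (without VC 2, LNT 1, LNT 2 or LNT 4), with an adjusted p of up to 0.07. VC 2 was low for Col5a1, and without that mouse the LNT change was 1.27 with an adjusted p of 0.0669.

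The fibrillar gene with the highest change in LFA and in LNT against VC was Col24a1, a minor fibrillar chain known from bone and cornea. Its signal was -4.06, -6.43, -3.75 and -3.77 in VC, -2.44, -3.93, -3.11 and -3.79 in SFA, -1.78, -1.22, -2.44 and -0.63 in LFA, -4.41, -3.62, -4.01 and -3.48 in SNT, and -1.33, -0.89, -1.93 and -1.18 in LNT. Every LFA and LNT mouse was above every VC and SNT mouse, and the 4 VC mice were spread by VC 2. Col24a1 rose by 3.17 ± 0.53 in LNT (9.01-fold, limma adjusted p = 0.00158) and by 2.98 ± 0.53 in LFA (7.91-fold, 0.00506). Without VC 2 the changes were 2.53 in LNT and 2.34 in LFA, both still called. Within single slides, which hold up to 8 arrays each, the LNT difference was 3.91 on slide 2 and 2.42 on slide 3, and the LFA difference was 2.24, 3.46 and 2.53 on slides 1, 2 and 3.

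**Figure D3:**
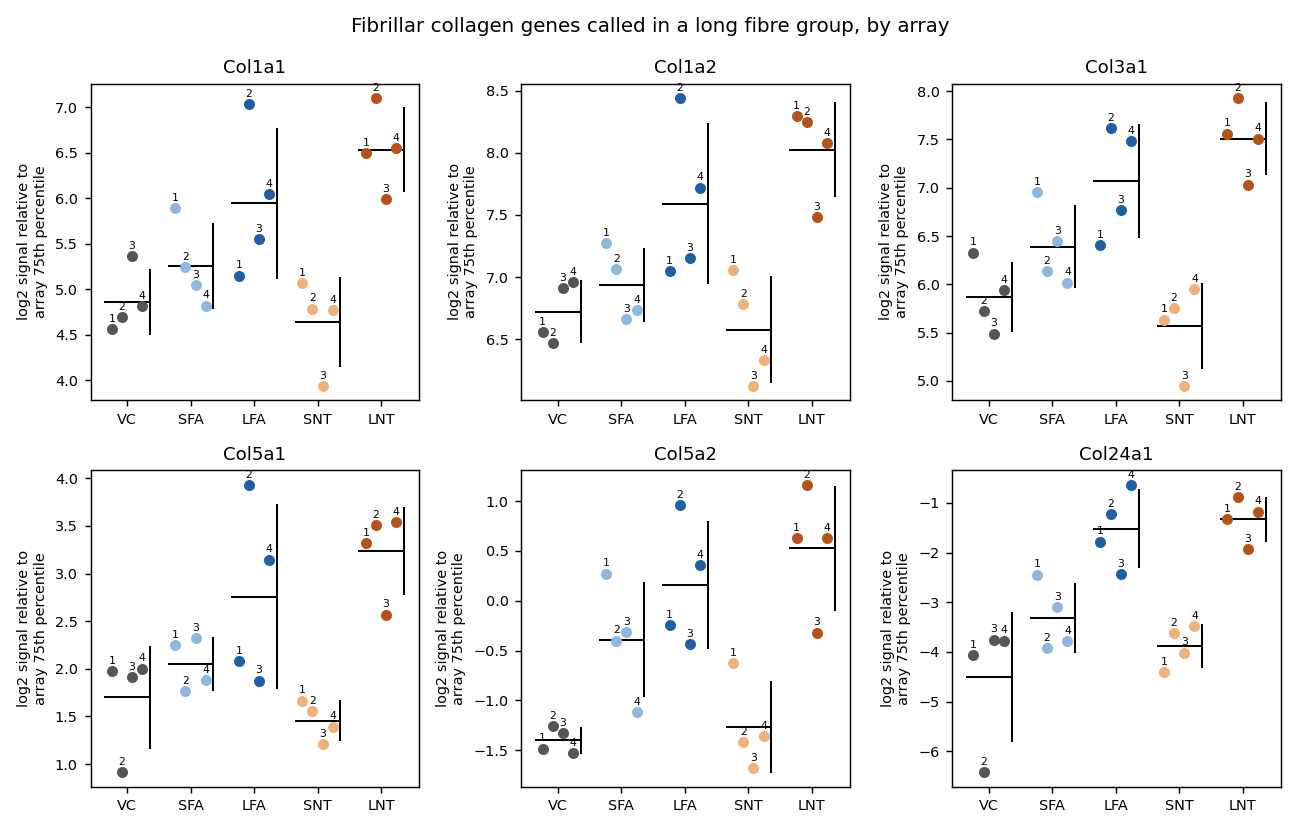
Log2 signal relative to the array's 75th percentile (vertical axes) of the 6 fibrillar genes called higher in a long fiber group, with 1 point per mouse numbered within its group, the group mean as a horizontal line and the SD as a vertical line. For each gene the 4 LNT points lie above the 4 VC points, and LFA 2 is the highest LFA mouse for 5 of the 6 genes.

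The other 5 fibrillar genes were not called against VC. Col5a3, a further type V chain, changed by 0.56 ± 0.30 in LNT and 0.35 ± 0.30 in LFA, and Col27a1, a cartilage fibrillar chain, by 0.58 ± 0.33 and 0.70 ± 0.33. The type XI chains, which sit inside cartilage fibrils, gave 1.14 ± 0.60 and 0.33 ± 0.60 for Col11a1 and -0.51 ± 0.28 and -0.56 ± 0.28 for Col11a2. The 5 genes had limma adjusted p-values from 0.207 to 0.987 in these comparisons. Col2a1, the chain of cartilage type II collagen, is described with the cartilage genes.

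The ubiquitous basement membrane chains Col4a1 and Col4a2 were not called in any comparison. These neighbors are transcribed in opposite directions from starts that lie 21 bases apart on chromosome 8 in the RefSeq table. The Col4a1 signal was 3.47, 2.39, 3.35 and 3.75 in VC, 3.53, 3.16, 3.39 and 3.61 in SFA, 2.67, 3.64, 2.54 and 3.12 in LFA, 3.27, 3.75, 2.51 and 2.26 in SNT, and 3.55, 3.17, 3.12 and 3.18 in LNT. The 5 groups overlapped, with changes of 0.02 ± 0.34 in LNT and -0.25 ± 0.34 in LFA. The Col4a2 signal was 3.01, 1.43, 3.29 and 3.67 in VC, 2.52, 3.31, 2.45 and 3.16 in SFA, 2.06, 3.52, 1.49 and 2.13 in LFA, 3.44, 3.88, 2.79 and 1.33 in SNT, and 3.15, 2.19, 2.83 and 2.79 in LNT. VC 2, LFA 3 and SNT 4 were the lowest mice, and each had the lowest 5' to 3' index of its group, at -1.16, -1.305 and -1.19. SFA 1 and LNT 2 had the lowest index of theirs, -1.39 and -1.27, with Col4a2 at 2.52 and 2.19. Whether the index accounts for the low values was not tested. The changes of Col4a2 were -0.11 ± 0.54 in LNT and -0.55 ± 0.54 in LFA. The limma adjusted p-values of both genes were between 0.555 and 0.986.

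Col4a4 was the basement membrane gene that fell. It encodes a chain of the specialised network known from the kidney glomerulus, together with Col4a3 and Col4a5. The Col4a4 signal was -0.79, -0.48, -0.95 and -0.79 in VC, -1.02, -0.5, -1.24 and -1.07 in SFA, -1.86, -2.19, -1.86 and -1.99 in LFA, -0.53, -0.63, -1.64 and -1.72 in SNT, and -2.05, -2.43, -1.81 and -2.46 in LNT. Every LFA and LNT mouse was below every VC and SFA mouse, while SNT 3 and 4 lay between the other SNT mice and the long fiber groups. The log2 change was -1.44 ± 0.28 in LNT (limma adjusted p = 0.00442) and -1.23 ± 0.28 in LFA (0.0213), which is 0.369 and 0.428 times the VC signal. A second tested Col4a4 probe changed by -1.48 in LNT and -1.14 in LFA and was not called (limma adjusted p = 0.0793 and 0.178). Within slides the first probe differed by -1.42 and -1.29 in LNT and by -1.13, -1.23 and -1.24 in LFA. The Col4a4 call in LFA was lost in 3 of 20 fits that left out 1 mouse (without VC 1, LFA 2 or LFA 4), with an adjusted p of up to 0.0701. Col4a3 changed by -1.57 ± 0.48 in LNT, where it was well above background on no array (limma adjusted p = 0.0542), and by -1.08 ± 0.48 in LFA. Col4a5 gave 0.91 ± 0.41 and 0.83 ± 0.41 and Col4a6, a smooth muscle and epithelial chain, -0.26 ± 0.28 and -0.11 ± 0.28, and none of these was called.

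Among the beaded filament genes, Col6a5 had the highest change of all collagen genes in LNT. Its product is one of the chains that can take the place of the alpha 3 chain in type VI collagen. The Col6a5 signal was -2.10, -3.87, -1.67 and -0.62 in VC, -2.69, -3.25, -2.08 and -1.19 in SFA, 1.0, 1.52, -1.95 and 0.44 in LFA, -2.12, -1.70, -2.90 and -4.12 in SNT, and 3.03, 1.28, 1.49 and 2.5 in LNT. All LNT mice were above all VC, SFA and SNT mice, and LFA was split, with LFA 3 at the level of VC and the other LFA mice above it. Col6a5 rose by 4.14 ± 0.77 in LNT, a 17.6-fold change (limma adjusted p = 0.00307). In LFA the change was 2.31 ± 0.77 and was not called (0.0849). In the 20 fits that left out 1 mouse, the LFA change ran from 1.71 to 3.05, with limma adjusted p-values from 0.0261 to 0.193. The value of 3.05, with the adjusted p of 0.0261, came from the fit without LFA 3, the lowest LFA mouse. A second Col6a5 probe was well above background on 7 arrays, 4 of them LNT, 2 LFA and 1 VC, so it passed the filter only through LNT and gives no separate support.

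The common type VI chains moved less. The Col6a1 signal was 4.65, 5.36, 4.99 and 5.33 in VC, 5.12, 5.22, 4.69 and 4.78 in SFA, 4.72, 6.12, 5.09 and 5.32 in LFA, 5.27, 5.22, 4.42 and 4.21 in SNT, and 5.84, 5.90, 5.63 and 5.62 in LNT. LNT was above VC without overlap and LFA was not. The Col6a2 signal was 2.68, 1.55, 2.41 and 3.36 in VC, 1.77, 2.37, 2.03 and 2.60 in SFA, 2.44, 3.28, 1.19 and 2.69 in LFA, 2.64, 3.16, 1.61 and 0.61 in SNT, and 4.02, 2.56, 2.77 and 3.20 in LNT. The groups overlapped. The Col6a3 signal was 3.68, 4.02, 3.61 and 3.75 in VC, 4.21, 3.32, 3.74 and 3.58 in SFA, 3.30, 4.51, 3.91 and 4.14 in LFA, 3.22, 3.57, 2.68 and 3.32 in SNT, and 4.40, 4.67, 4.05 and 4.20 in LNT. LNT was again above VC without overlap, and SNT was below VC without overlap. The changes in LNT were 0.66 ± 0.30, 0.64 ± 0.53 and 0.56 ± 0.28 for the 3 genes in this order and in LFA 0.23 ± 0.30, -0.10 ± 0.53 and 0.20 ± 0.28, and none was called. Col6a6 changed by 0.23 ± 0.39 in LNT and -0.48 ± 0.39 in LFA. Col6a4 was well above background on only 4 arrays, none of them VC, and changed by 1.19 ± 0.73 and 0.45 ± 0.73.

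Col18a1, whose product carries the endostatin fragment and which is made by hepatocytes as well as vessels, was highest in the 5 mice with the most liver transcripts. The Col18a1 signal was 2.5, 3.22, 2.31 and 2.47 in VC, 2.99, 4.09, 2.83 and 2.27 in SFA, 4.26, 2.91, 4.66 and 3.24 in LFA, 2.51, 1.97, 4.36 and 5.43 in SNT, and 3.14, 3.11, 2.84 and 2.69 in LNT. SNT 4, LFA 3, SNT 3, LFA 1 and SFA 2, in this order, were the highest, from 5.43 to 4.09, and these 5 mice also had the 5 highest means of the liver markers, from 6.96 to 8.72. Below these 5 mice the order in Col18a1 differed from that in the liver markers. The next mouse in Col18a1 was LFA 4, at 3.24, with a liver mean of -2.19. VC 1 had a liver mean of 4.56 and a Col18a1 signal of 2.5. A second Col18a1 probe gave the same direction, with changes of 1.29 in LFA and 0.34 in LNT, beside 1.14 ± 0.60 and 0.32 ± 0.60 for the first, none called. Without the 5 mice with the highest liver means the LFA change of the first probe was 0.45. Those mice include LFA 1 and LFA 3, the highest LFA mice in Col18a1, and no VC mouse. A lower LFA change was therefore fixed by the choice of mice. With the liver marker mean as a covariate the LFA change was 0.76. Whether liver tissue in the sample accounts for this signal was not tested. The other multiplexin gene, Col15a1, had a signal of -1.34, -4.06, -1.01 and -1.19 in VC, -3.96, 0.35, -3.02 and -2.15 in SFA, -3.26, -0.18, -4.06 and -2.80 in LFA, -0.90, -0.64, -1.04 and -3.56 in SNT, and -1.67, -2.92, -2.41 and -1.10 in LNT. Values from -4.06 to 0.35 occurred, and every group overlapped the others, and the changes of -0.68 ± 0.96 in LFA and -0.13 ± 0.96 in LNT were not called.

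**Figure D4:**
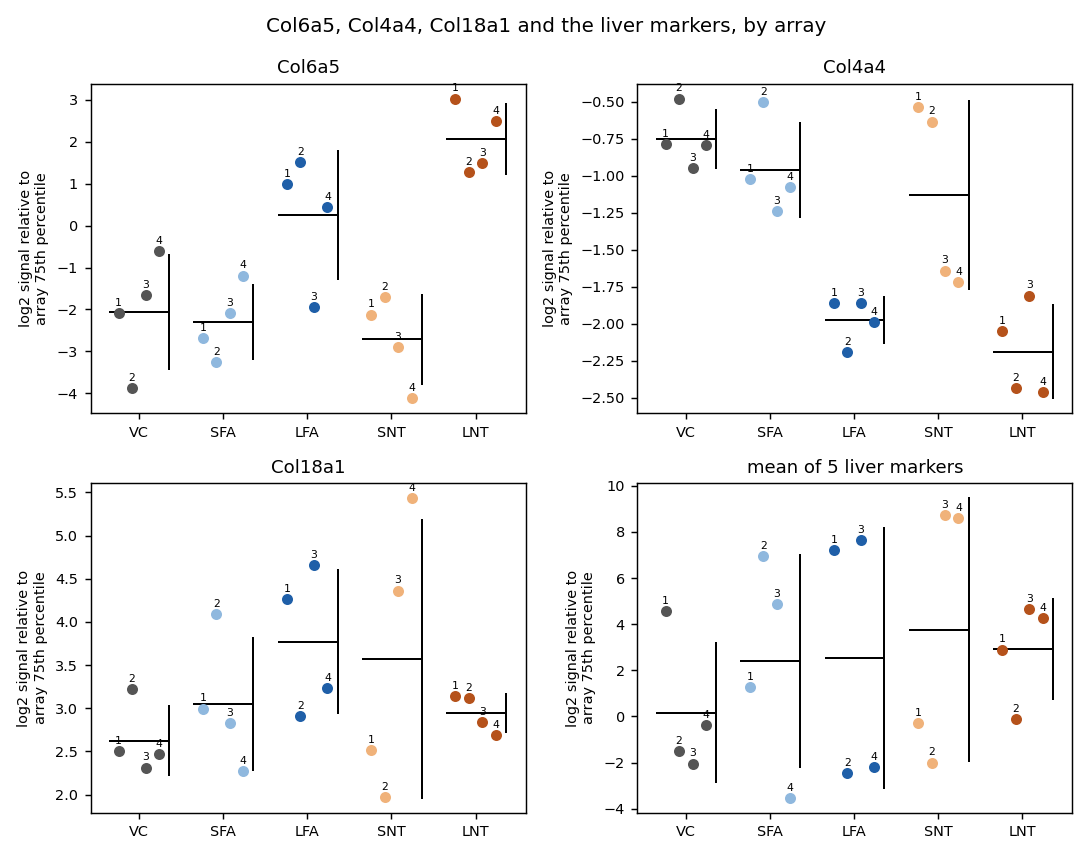
Log2 signal relative to the array's 75th percentile (vertical axes) of Col6a5, Col4a4 and Col18a1 and the mean of the 5 liver markers, with 1 point per mouse numbered within its group, the group mean as a horizontal line and the SD as a vertical line. Col6a5 is high in LNT, Col4a4 is low in LFA and LNT, and the 5 mice with the highest Col18a1 signal, from 4.09 to 5.43, also have the highest liver means.

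The FACIT genes did not move as a group. Of 8 tested, 5 had a negative change in both long fiber groups, and their median change was -0.48 in LNT and -0.78 in LFA. Col19a1, a minor chain known from embryonic muscle, was the FACIT gene that was called. Its signal was -4.63, -3.09, -4.40 and -5.33 in VC, -4.5, -4.53, -4.76 and -5.26 in SFA, -5.99, -6.32, -6.61 and -5.31 in LFA, -4.0, -4.72, -5.22 and -5.90 in SNT, and -5.76, -6.47, -6.05 and -5.45 in LNT. It was well above background on 6 arrays and on none of LFA or LNT, so the difference is given as a bound, at least 2.95-fold lower in LNT (limma adjusted p = 0.0387) and at least 2.76-fold lower in LFA (0.0398). Such a bound sets the mean of the brighter group against the lowest signal well above background, or the dim probe's own signal where that was higher, on each array of the dimmer group. The fitted changes were -1.57 ± 0.45 and -1.70 ± 0.45, and both calls were lost with quantile normalization, with normexp background correction, with no filter on dim probes, with the slide or the replicate number as a block, in fits of only the groups compared, with the liver mean as a covariate and without VC 2. Outside VC it was well above background on 3 arrays, so it entered the test only through the group where it is high, and its count among the called genes is to be read with that limit. The second Col19a1 probe was well above background on no array. Col12a1 and Col14a1, which coat type I fibrils in tendon and fascia, changed by 1.37 ± 0.56 and 0.95 ± 0.49 in LNT and by 0.18 ± 0.56 and 0.70 ± 0.49 in LFA. Col16a1, without LNT 3, whose spot was flagged and dropped, gave 0.95 ± 0.36 and 0.44 ± 0.33. Col20a1, Col22a1 of the muscle and tendon junction, Col9a1 and Col9a2 changed by -0.55, -0.42, -0.74 and -1.15 in LNT and -0.69, -0.88, -0.95 and -1.02 in LFA, and none was called against VC.

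The remaining genes were not called against VC. The network chains of type VIII, known from vessels and the cornea, changed by 1.09 ± 0.53 for Col8a1 and 0.63 ± 0.51 for Col8a2 in LNT and by 0.49 ± 0.53 and -0.14 ± 0.51 in LFA. Col7a1 of the anchoring fibrils of skin gave 0.08 ± 0.37 and -0.06 ± 0.37. The membrane-spanning chains Col17a1, Col23a1 and Col25a1 gave 1.22, 0.21 and -0.41 in LNT and 0.42, -0.19 and -0.58 in LFA. Of the 40 tested genes, 26 had a positive change in LNT and 21 in LFA, where 12860 and 12492 of the 36931 tested probes did.

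Fiber length was compared directly within each material. In LNT against SNT, 14 of the 40 genes were called, 10 higher and 4 lower, where 7.58% of all tested probes were called, 4.92% higher and 2.66% lower. The 10 higher genes were Col1a1, Col1a2, Col3a1, Col5a1, Col5a2, Col24a1, Col6a3, Col6a5, Col12a1 and Col16a1. The log2 differences were 1.89 for Col1a1, 1.45 for Col1a2, 1.94 for Col3a1, 1.78 for Col5a1, 1.80 for Col5a2 and 2.55 for Col24a1, with limma adjusted p-values from 0.000942 to 0.00754, and the 4 LNT mice were above the 4 SNT mice for all 6 fibrillar genes. Col6a5 differed by 4.79 ± 0.77, Col12a1 by 2.06 ± 0.56, Col16a1 by 1.47 ± 0.36 and Col6a3 by 1.13 ± 0.28. A second Col16a1 probe, measured in all 4 LNT mice, was called too, with 1.48 ± 0.36, and a dimmer one was not, with 0.49 ± 0.63. Only slide 2 held both groups, with LNT 1 and SNT 1 and 2, and on it 9 of 11 fibrillar genes were higher in LNT with a median difference of 1.38. With the slide as a block, 3 of the 40 genes were called in place of 14, namely Col3a1, Col6a5 and Col9a2, and 9 were called without SNT 3, which had the highest liver mean.

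The 4 genes lower in LNT than in SNT were Col4a4, with -1.06 ± 0.28, and the cartilage genes Col2a1, Col10a1 and Col9a2, which were singled out after their values were seen. Col10a1 marks hypertrophic cartilage. Its signal was -7.42, -5.98, -7.06 and -4.32 in VC, 0.82, -4.65, -7.17 and -7.24 in SFA, -7.57, -6.62, -2.23 and -7.53 in LFA, 0.62, -4.03, -0.63 and -2.09 in SNT, and -7.67, -7.17, -7.5 and -7.38 in LNT. SNT was above VC in all 4 mice, and SFA 1 and LFA 3 stood far above the others of their groups. The Col2a1 signal was -6.54, -5.49, -4.07 and -1.16 in VC, 1.76, -5.93, -7.24 and -5.40 in SFA, -5.16, -5.54, -0.37 and -6.40 in LFA, 0.71, -2.51, -2.19 and 0.11 in SNT, and -7.06, -6.45, -5.90 and -6.45 in LNT. It was highest in SFA 1, LFA 3 and VC 4 within their groups, as Col10a1 was, and all SNT mice were above all LNT mice. Col2a1 was well above background on 9 arrays and Col10a1 on 7, none of them LNT. Col2a1 was at least 35.8-fold lower in LNT than in SNT (limma adjusted p = 0.0443) and Col10a1 at least 27.5-fold. Outside SNT, Col10a1 was well above background on 3 arrays, so it entered the test only through the group where it is high and its values are a description. With the slide as a block the Col2a1 call was lost, at an adjusted p of 0.298. The Col2a1 call in LNT against SNT was lost in 11 of 20 fits that left out 1 mouse (without VC 3, SFA 4, LFA 1, SNT 1, SNT 2, SNT 3, SNT 4, LNT 1, LNT 2, LNT 3 or LNT 4), with an adjusted p of up to 0.106. Against VC, SNT gave 3.34 ± 1.64 and 4.66 ± 1.5, and neither was called. Col9a2, which decorates cartilage fibrils, differed by -1.84 ± 0.37 between LNT and SNT, and LFA and LNT were below VC without overlap.

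Acan, the gene of the cartilage proteoglycan aggrecan, had a signal of -4.26, -3.70, -3.98 and -3.34 in VC, -1.67, -3.01, -5.07 and -4.60 in SFA, -4.03, -3.79, -3.51 and -4.20 in LFA, -1.05, -3.13, -1.91 and -2.41 in SNT, and -3.61, -4.48, -4.79 and -4.03 in LNT. SFA 1 and SNT 1, 3 and 4 were the highest, and LFA 3 lay within the range of the VC mice. Of the 7 cartilage markers, 6 were tested. The mean log2 signal of all 7, with the untested Matn1 included, ranged from -3.04 to -2.58 in VC, -3.47 to -1.88 in SFA, -3.48 to -2.63 in LFA, -2.74 to -1.59 in SNT and -3.05 to -2.65 in LNT. The markers did not all follow Acan. Over the 6 tested, the median change was 0.85 in SNT against VC, with 0 called, and -0.38 in LNT against SNT, with 1 called lower. In LNT against VC 1 was called higher, Comp. The Sox9 signal overlapped, from -1.98 to -1.05 in VC and -2.43 to -1.19 in SNT. Matn1, a defining cartilage gene, was not above background on enough arrays to be tested, and whether costal cartilage entered single samples was not tested.

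**Figure D5:**
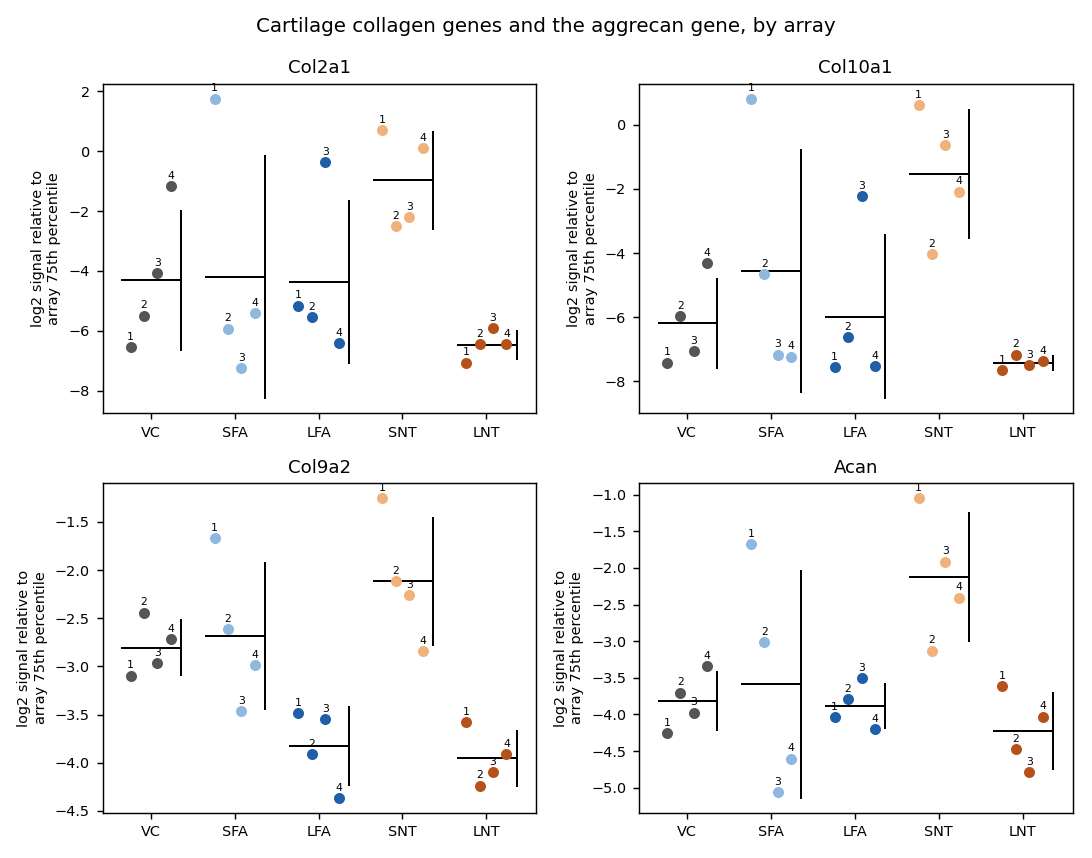
Log2 signal relative to the array's 75th percentile (vertical axes) of Col2a1, Col10a1, Col9a2 and Acan, with 1 point per mouse numbered within its group, the group mean as a horizontal line and the SD as a vertical line. SFA 1 and SNT 1 are the highest mice of their groups in all 4 panels, and the LNT mice lie between -7.06 and -5.90 for Col2a1.

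In LFA against SFA, limma called 0 of the 40 genes, where 1.16% of all tested probes were called. At an unadjusted p under 0.05, 11 of the 40 genes passed, where 4645 of all 36931 tested probes did. The differences of the fibrillar genes were 0.69 for Col1a1, 0.66 for Col1a2, 0.68 for Col3a1, 0.70 for Col5a1, 0.55 for Col5a2 and 1.80 for Col24a1, and Col6a5 gave 2.55 ± 0.77 and Col4a4 -1.02 ± 0.28 (limma adjusted p = 0.102). All LFA mice were below all SFA mice for Col4a4. For Col24a1 the LFA mice were above the SFA mice only by a very small gap, with LFA 3 at -2.4404 and SFA 1 at -2.445. Within slides the fibrillar median difference between LFA and SFA did not keep its sign, at -0.18 on slide 2 with 3 of 11 genes higher in LFA and 1.46 on slide 3 with 10 of 11 higher. In the direct test of whether the length effect differed between nanotubes and asbestos, limma called 0 of the 40 genes and 0% of all probes. An unadjusted p under 0.05 was found for 7 genes and for 1279 of all 36931 tested probes. The estimate for Col3a1 was 1.26 ± 0.45, for Col5a2 1.25 ± 0.52 and for Col6a5 2.23 ± 1.08, nanotube length effect minus asbestos length effect. In LFA against LNT, given at different doses, 0 genes and 0% of probes were called by limma. There, 2 genes and 569 of all 36931 tested probes had an unadjusted p under 0.05. The lower fibrillar signals of LFA, with -0.59 for Col1a1, -0.44 for Col3a1 and -0.37 for Col5a2, and of Col6a5, with -1.82 ± 0.77, are differences that these groups of 4 did not separate.

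The genes that process or bind collagen were read from a list of 44, of which 43 were tested. The list includes 8 genes for collagen uptake and receptors. The 7 of these that were tested gave 1 call in each long fiber group, Lair1. In LNT against VC, 6 of the 43 were called, all higher, and in LFA 2, both higher, where 6.8% and 3.96% of all tested probes were called. The median change over the 43 genes was 0.29 in LNT and 0.26 in LFA, beside -0.25 and -0.28 for all tested probes. Lox, the lysyl oxidase that crosslinks fibrils, had a signal of -1.63, -1.71, -2.43 and -2.29 in VC, -0.56, -2.77, -0.99 and -1.66 in SFA, -0.79, 0.63, -1.06 and -0.33 in LFA, -2.25, -2.65, -2.77 and -2.21 in SNT, and 0.37, 0.79, -0.80 and 0.62 in LNT. All LNT and LFA mice were above all VC mice, while SFA 1 and SFA 3 were above VC too and overlapped LFA. It rose by 2.26 ± 0.46 in LNT (limma adjusted p = 0.00576), with 1.62 ± 0.46 in LFA (0.0507, not called). Of the other crosslinking genes, Loxl3 rose by 1.11 ± 0.33 in LNT (0.047). Of 7 genes for propeptide removal, Adamts14, a procollagen N-proteinase, rose by 1.39 ± 0.32 in LNT and 1.22 ± 0.32 in LFA (limma adjusted p = 0.014 and 0.0407), and Bmp1, the procollagen C-proteinase, by 1.19 ± 0.32 in LNT (0.0292), with 0.89 ± 0.32 in LFA. Lum, the gene of the fibril proteoglycan lumican, rose by 1.49 ± 0.35 in LNT, while Dcn, the gene of decorin, gave -0.04 ± 0.25. Lair1, an inhibitory collagen receptor of immune cells, rose by 1.80 ± 0.35 in LNT and 1.53 ± 0.35 in LFA (limma adjusted p = 0.00422 and 0.0206). Calls of genes in this list and of cell type markers were not recomputed with the slide as a block or without single mice.

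None of the 12 genes of prolyl and lysyl hydroxylation was called in either group. Plod2, a telopeptide lysyl hydroxylase, gave 1.33 ± 0.59 in LNT and 0.87 ± 0.59 in LFA, and P4ha1, a prolyl hydroxylase subunit, -0.22 ± 0.33 and -0.02 ± 0.33. None of the 6 chaperone and export genes was called, with 0.60 ± 0.45 and 0.43 ± 0.45 for Serpinh1, the collagen chaperone, and 0.29 ± 0.28 and -0.02 ± 0.28 for Sparc. Neither Colgalt gene was called, and Colgalt2, a collagen galactosyltransferase, gave -0.93 ± 0.26 in LFA, short of the 2-fold threshold.

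Markers of other cell types differed between the groups as follows. Of 7 macrophage markers, 5 were called higher in both long fiber groups, and their mean log2 signal ranged from 1.13 to 1.28 in VC, 0.81 to 1.46 in SFA, 2.08 to 3.20 in LFA, 0.83 to 1.46 in SNT and 2.95 to 3.36 in LNT. Of 7 fibroblast markers, only Lum was called, in LNT. The fibroblast mean was 3.79 to 4.11 in VC, 3.83 to 4.16 in SFA, 3.75 to 4.64 in LFA, 3.37 to 3.91 in SNT and 4.18 to 4.73 in LNT. Pdgfra, a receptor of connective tissue fibroblasts, gave 0.92 ± 0.24 in LNT and 0.81 ± 0.24 in LFA, and Thy1 0.09 ± 0.35 and -0.17 ± 0.35. Of 7 skeletal muscle markers, 1 was called lower in LFA and 2 in LNT, with a mean of 8.50 to 8.86 in VC, 8.00 to 8.51 in SFA, 7.30 to 8.06 in LFA, 7.86 to 9.05 in SNT and 7.10 to 7.36 in LNT. The part of these differences in the collagen changes was not tested. None of the 7 mesothelium, 5 endothelium or 3 tendon markers was called in either long fiber group. Comp, a cartilage and tendon matrix gene, rose by 1.99 ± 0.60 in LNT (limma adjusted p = 0.0497), and Adipoq and Cfd, of 5 adipocyte markers, fell by 1.39 and 1.27 on the log2 scale.

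The count in LFA against VC depended on single mice. Of 20 fits that each left out 1 mouse, the count of called genes ranged from 1 to 5, with 1 without VC 1 and 1 without LFA 2, and Col24a1 was the gene left in both. Without LFA 4 it was 2. It was 3 without VC 2, VC 3, VC 4, SFA 3 or LNT 1. Without the 5 mice with the most liver transcripts it was 8, with Col1a1, Col1a2, Col5a1 and Col6a5 added and Col19a1 lost. That fit left only LFA 2 and LFA 4 in the LFA group. Their fibrillar medians were the highest of the group, 1.72 and 1.09, beside 0.33 and 0.52 in the dropped LFA 1 and LFA 3. The count in LNT against VC ranged from 6 to 11 in the 20 fits that left out 1 mouse. With the slide as a block, 5 genes were called in LNT and 3 in LFA. Within each slide that held both groups, the median difference of the fibrillar genes from VC was positive in the long fiber groups, at 1.79 and 1.03 in LNT on slides 2 and 3 and at 0.48, 0.64 and 1.53 in LFA on slides 1, 2 and 3. It was positive in short fiber mice too, at 0.73 and 0.10 in SFA on slides 2 and 3 and at 0.41 in SNT on slide 2, where SFA lay above LFA, and it was -0.49 in SNT on slide 1.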

How the data were processed

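The deposited scanner files were read for 20 arrays, 1 per sample (one-colour Agilent SurePrint, Cy3). Per the file headers and the submitters' processing notes, the authors made the intensity values with Agilent Feature Extraction 10.7.3.1, whose processed signal is already background-subtracted. The authors' deposited table, made with GeneSpring, holds normalized log2 values with 1 pooled column per group, so it has no replicates and no test was run on it. Its changes against VC and those computed here gave r = 1 and a slope of 1 over 36931 probes. Saturation and outlier flags are deposited with each spot, and 0 spots were saturated.

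Outlier spots (92 to 204 per array) were dropped, spots of a probe were averaged, and each array's 75th percentile was subtracted on the log2 scale. Probes well above background on at least 4 arrays were tested, 36931 of 55681, in 1 fit of the 5 group means with limma 3.58.1 in R 4.3.3, with Benjamini-Hochberg adjustment. The methods of the study name an analysis of variance with unequal variances, which was run as an alternative. Scripts used pandas 2.3.3 and were tested on simulated data. The labels number the replicates without naming the animal of each, so the samples are called mice here and p-values measure only the spread between them. The number of arrays limits the precision.

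Every member was accounted for. Values on every array are given for genes called in LFA or LNT against VC and for Col4a1, Col4a2, Col6a1, Col6a2, Col6a3, Col15a1 and Col18a1. Of the genes that process or bind collagen, those called are named. Col2a1, Col10a1, Acan, Comp and the other genes named beyond this rule were chosen after their values were seen. The members and lists were chosen with earlier results of these data known.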

Additional observations from a re-analysis of the deposited data

Results flagged for a closer look

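In groups of 4 mice, 6 of 105 sets of values had 1 mouse far from the other 3, with a gap to the nearest above Dixon's critical share of the range, and chance flags about 1 in 20 groups. VC 2 was the lowest VC mouse in 3 of them, at -4.0593 for Col15a1 (the nearest VC mouse was at -1.3367), -6.4286 for Col24a1 (-4.0569) and 0.9116 for Col5a1 (1.912). VC 2 also had the lowest scale value, 292.2, and the lowest share of spots above background, 53%. Its 5' to 3' index of -1.1596 was the lowest of the VC mice. SNT 4 was the lowest SNT mouse for Col15a1, at -3.5623, with the nearest at -1.0385, and its index of -1.1879 was the lowest in SNT. LNT 1 was the highest LNT mouse for Col4a1, at 3.5494, with the nearest at 3.1802. For the median of the other collagen genes, LNT 3 was the lowest LNT mouse, at 0.0178, with the nearest at 0.3863.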

How the results depend on the processing

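Of 265 recomputed counts, 246 stayed within 1.5 times the value in the report. These include comparisons with a main count of 0, such as SFA and SNT against VC, where 0 that stayed 0 was counted as kept. In the 20 fits that left out 1 mouse, 8 counts moved further in LFA against VC, 1 in LNT against SNT and 0 in LNT against VC. Of 400 class medians, 397 moved by less than 1 SD between the mice of a group, whether or not the sign turned. In LFA against VC, 5 genes were called in the main fit, 3 with no filter on dim probes, 3 with probes above background on all 20 arrays, 3 with the slide as a fixed block, 1 in a fit of only the groups compared and 8 without the 5 arrays with the most liver transcripts. The fit without those arrays kept only LFA 2 and LFA 4 of the LFA group. With the slide as a fixed block, 5 were called in LNT against VC and 3 in LNT against SNT. With the 5' to 3' index as a covariate, 1 was called in LFA against SFA. Leaving out 1 mouse gave 1 to 5 in LFA against VC, 9 to 16 in LNT against SNT and 0 to 1 in LFA against SFA. The median of the other collagen genes in LNT was 0.544 with quantile normalization and 0.071 with normexp, and in LFA 0.4285 without those 5 arrays.

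Signs turned only for uncalled genes. In LFA, with the index as a covariate, Col15a1 gave 0.2792, Col4a1 0.001, Col4a2 0.0132 and Col6a2 0.4451. Without the 5 arrays, Col15a1 gave 0.4083, Col4a1 0.1427 and Col6a2 0.4845. Col6a2 gave 0.0781 with the slide block, 0.0646 as the mean of its probes and 0.1263 with the liver covariate. In LNT, Col4a2 gave 0.0469 with quantile normalization, 0.2108 with the index and 0.1093 with the liver covariate, Col15a1 gave 0.4164, 0.1884 and 0.0452 with the index, the mean of probes and the liver covariate, Col4a1 gave -0.1216 with the slide block and Col18a1 -0.1191 with the liver covariate. Leaving out 1 mouse gave ranges of -0.0436 to 0.4241 for Col6a1 and -0.4141 to 0.3043 for Col6a2 in LFA, and of -0.8458 to 0.1739 for Col15a1, -0.2677 to 0.1842 for Col4a1 and -0.5806 to 0.1679 for Col4a2 in LNT. The cause was not tested.

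Correlations of the deviations of same-numbered mice from their group means ran from -0.675 to 0.689. They were not set beside those of differently numbered mice, so they cannot decide whether the replicate numbers pair the mice. With the replicate block, 4 genes were called in LFA and 9 in LNT against VC, and 13 in LNT against SNT. The liver settings were chosen after seeing the data. The methods' test was run on probes changed at least 2-fold against VC in any group. Over the 5 groups it passed 11 of the 19 collagen genes so changed, where 2657 of all 10962 probes so changed passed. Counts from the authors' table were not run, since it holds group means.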
